A study of Mus musculus with 8 samples.

Results

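The IL-3 chain was followed as 10 genes of the count table: the ligands Il3 and Csf2, the receptor chains Il3ra, Csf2rb, Csf2rb2 and Csf2ra, the kinases Jak1 and Jak2, and the transcription factors Stat5a and Stat5b. They were picked by name, and all 10 were found among the 53465 Ensembl genes of the table. Messenger RNA had been sequenced from Ba/F3 cells, an immortalised mouse line of C3H background that depends on interleukin-3 (IL-3) for growth. One group was 5 libraries of Ba/F3 transformed with U2AF35 carrying S34F (transformed 4, 5, 6, 7 and 8), and the other was 3 libraries of parental Ba/F3 with wild-type U2AF35 (parental 1, 2 and 3). U2af1 encodes U2AF35, which helps the splicing machinery find the ends of introns. Neither the vector, the number of clones nor the presence of IL-3 in the medium is given in the sources used here. Nothing in the labels says whether the libraries of a group are separate cultures, so p-values measure the spread between these libraries, which may be technical.

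IL-3 is a cytokine made mainly by activated T cells and mast cells, and granulocyte-macrophage colony-stimulating factor, the product of Csf2, is its neighbour on the chromosome. Each binds its own alpha chain (Il3ra or Csf2ra), which then pairs with a beta chain that carries the signal. The mouse has a pair of beta chains: the common one, Csf2rb, shared with the receptors for IL-5 and Csf2, and Csf2rb2, which serves IL-3 alone. Beta chains bring JAK2 to the membrane, and JAK2 phosphorylates STAT5A and STAT5B, which enter the nucleus and switch on target genes. In Ba/F3 cells this chain carries the survival signal.

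Total counts ran from 36122062 to 50050922 in transformed and from 45025892 to 50305573 in parental libraries. Levels are CPM (counts scaled to a common library total) with TMM factors, and fold changes are transformed over parental. U2af1 was at 157, 144, 128, 92.0 and 132 CPM in transformed 4 to 8, against 85.3, 98.2 and 91.6 CPM in parental 1 to 3 (log2 fold change 0.51, SE 0.16, edgeR adjusted p = 0.108). Gene counts do not separate an introduced copy from the endogenous one. Transformed 4 and 7 stood apart from the rest: their mean correlation with the other transformed libraries (log2 CPM, across genes) was 0.978 and 0.977, against 0.988 to 0.990 for transformed 5, 6 and 8. With the parental libraries it was 0.986 for transformed 4 and 0.970 for transformed 7, against 0.987 to 0.988 for transformed 5, 6 and 8. Transformed 4 was thus closer to the parental libraries than to its own group, and transformed 7 was not. A lane tag in the labels puts transformed 5 and 8 with parental 1 and 3 in lane 6, and transformed 4, 6 and 7 with parental 2 in lane 7. The label calls the cells pro-B cells, but of 14 pro-B markers 12 (among them Pax5, Ebf1, Rag1 and Vpreb1) had at most 10 counts in any library. Cd79a and Cd79b were counted throughout, and neither passed (edgeR adjusted p = 0.346 and 0.991). The summed level of the list ran from 54.3 to 77.7 CPM in transformed and from 63.3 to 76.0 CPM in parental libraries.

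The ligands were the members that differed most between libraries, and neither passed the test across all genes. For Il3 every transformed library lay above every parental one, while for Csf2 transformed 4 and parental 1 had the same count. Il3 (ENSMUSG00000018914, chromosome 11, 54265303 to 54267277 of GRCm38, minus strand) had 104, 176, 263, 393 and 272 counts in transformed 4 to 8, against 103, 0 and 0 counts in parental 1 to 3. As levels these were 2.10, 3.49, 5.79, 11.2 and 5.75 CPM in transformed libraries and 2.01, 0 and 0 CPM in parental ones. The groups did not overlap, but parental 1 lay just under transformed 4 and far above parental 2 and 3. With parental 2 and 3 pooled at a floor of 3 counts, Il3 was at least 66.3-fold higher in transformed 4, at least 344-fold higher in transformed 7 and at least 64.7-fold higher in parental 1 (before TMM scaling).

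Csf2 (ENSMUSG00000018916, chromosome 11, 54247271 to 54249667, minus strand) ends 15.6 kb from Il3 and was far rarer. It had 3, 12, 8, 66 and 16 counts in transformed 4 to 8, against 3, 0 and 0 counts in parental 1 to 3. It was counted in the same 6 libraries as Il3 and in no other, and transformed 7 was the highest for both genes. By the same floor Csf2 was at least 57.8-fold higher in transformed 7, at least 10.5-fold in transformed 8, at least 7.58-fold in transformed 5 and at least 5.60-fold in transformed 6. No such bound is given for libraries with 3 counts. The number of Il3 counts per Csf2 count was 34.7, 14.7, 32.9, 5.95 and 17.0 in transformed 4 to 8 and 34.3 in parental 1. Csf2 thus made up a larger part of the pair in transformed 7 than in any other library.

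The promoters of the ligand genes are shown because the genes had no counts in parental 2 and 3 and counts in the other 6 libraries. Each is the 300-base RefSeq window (GRCm38.p6, 250 bases before to 50 after the start), written 5′ to 3′ on the gene's strand, chr11:54267230-54267529 for Il3 and chr11:54249850-54250149 for Csf2, both minus. Capitals mark matches, on either strand, to GGAAA (the core of NFAT and ETS sites), TGTGGT (a RUNX core) or AGATAA (the core of a GATA-factor site).
Il3: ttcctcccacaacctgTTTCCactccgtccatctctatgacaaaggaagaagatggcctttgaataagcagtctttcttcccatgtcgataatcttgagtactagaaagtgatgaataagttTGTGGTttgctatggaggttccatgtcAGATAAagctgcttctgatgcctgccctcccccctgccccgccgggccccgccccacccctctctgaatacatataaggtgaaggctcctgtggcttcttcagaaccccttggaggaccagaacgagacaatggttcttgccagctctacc
Csf2: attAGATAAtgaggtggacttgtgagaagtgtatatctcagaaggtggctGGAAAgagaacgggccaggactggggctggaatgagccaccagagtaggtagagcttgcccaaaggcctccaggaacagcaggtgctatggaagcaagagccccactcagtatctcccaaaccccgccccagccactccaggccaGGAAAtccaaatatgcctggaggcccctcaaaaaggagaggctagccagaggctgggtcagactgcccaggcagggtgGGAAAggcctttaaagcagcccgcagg
The Il3 window held 1 match to each of the 3 motifs, and the Csf2 window held 3 matches to GGAAA and 1 to AGATAA. Of 32851 promoter windows of this length, 61.3% held GGAAA, 16.8% held TGTGGT and 11.2% held AGATAA. Neither window held TTCNNNGAA, the GAS site of STAT factors, which 8.30% of windows held. Neither held TGANTCA, the AP-1 site (7.81% of windows), or the NF-kB consensus (1.20% of windows). The RefSeq start of Csf2 lies 232 bases upstream of the GENCODE start of the gene, and that of Il3 lies 2 bases upstream. The Csf2 window thus lies wholly upstream of the GENCODE start and leaves out the bases next to it. The motifs it lacks were not looked for there. The matches describe letters and not binding.

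In edgeR's quasi-likelihood test over 17733 genes, Il3 had a log2 fold change of 3.05 (SE 1.26, adjusted p = 0.205) and Csf2 one of 4.49 (SE 1.55, adjusted p = 0.142). These fitted values depend on the prior count, since parental 2 and 3 were at 0. For the same reason both genes passed the low-count filter only through their transformed libraries. Their edgeR values are thus given as descriptions. The exact permutation test of mean log2 level gave p = 0.0179 for Il3, the smallest p that 5 against 3 libraries allow, and p = 0.107 for Csf2 (2-sided, unadjusted, n = 5 and 3). For Il3 this smallest p rests on transformed 4 lying above parental 1, by 104 counts against 103. Without parental 1, where 0.415% of genes passed, Il3 passed in edgeR (adjusted p = 0.0454). Its fitted log2 fold change was then 11.03, and that of Csf2 was 7.59 (edgeR adjusted p = 0.247). In that fit the parental libraries left had 0 counts of Il3, which met the filter through transformed libraries alone. The Il3 call is thus given as a description and not as support for a difference. Over the alternatives the fitted values ran from 2.17 to 11.2 for Il3, with 6.25 in limma-voom (adjusted p = 0.0686), and from 3.13 to 7.95 for Csf2. For Csf2 the adjusted p was 0.00790 in DESeq2, where 10.5% of genes passed, and 0.0364 in edgeR within lane 6, where 20.4% passed. With parental counts of 3, 0 and 0 and a filter met through transformed libraries alone, these calls are given as descriptions. Csf2 could not be fitted in 5 alternatives whose filters dropped it. Mean levels of Il3 were 4.62 CPM in transformed and 1.01 CPM in parental cells within lane 6, and 6.37 CPM in transformed and 0 CPM in parental cells within lane 7. In bulk RNA a larger share of producing cells and more RNA per cell cannot be told apart.

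The alpha chain of the IL-3 receptor, Il3ra (ENSMUSG00000068758, chromosome 14, 14346275 to 14356011), was at 60.5, 42.3, 45.4, 67.3 and 38.7 CPM in transformed 4 to 8, against 48.6, 49.3 and 55.0 CPM in parental 1 to 3. Its means were 50.8 ± 12.4 CPM in transformed cells (SD, n = 5) and 51.0 ± 3.55 CPM in parental cells (SD, n = 3). Transformed libraries lay on both sides of the parental ones: transformed 4 and 7 above all 3, and transformed 5, 6 and 8 below all 3. The log2 fold change was near 0 (-0.0040, SE 0.18, edgeR adjusted p = 0.994) and took either sign in other fits.

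Both beta chains were abundant and lower in most transformed libraries. Csf2rb (ENSMUSG00000071713, chromosome 15, 78325752 to 78353847, plus strand) had 3354, 1994, 1490, 825 and 1852 CPM in transformed 4 to 8, against 3015, 3724 and 4176 CPM in parental 1 to 3. Csf2rb2 (ENSMUSG00000071714, chromosome 15, 78282507 to 78305721, minus strand) had 2603, 1548, 1128, 610 and 1380 CPM in transformed libraries, against 2310, 3253 and 3457 CPM in parental ones. For each gene 4 of 5 transformed libraries were below all 3 parental ones, and transformed 4 lay above parental 1. The highest transformed library had 4.07 times the Csf2rb and 4.27 times the Csf2rb2 of the lowest, against 1.39 and 1.497 times among parental libraries.

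Csf2rb had a log2 fold change of -0.93 (SE 0.36, edgeR adjusted p = 0.180) and Csf2rb2 one of -1.05 (SE 0.38, edgeR adjusted p = 0.159), and the exact permutation test gave p = 0.0714 for each. Both passed as lower in edgeR within lane 6 (adjusted p = 0.0174 for Csf2rb and 0.0372 for Csf2rb2) and without transformed 4 (adjusted p = 0.0232 and 0.0211). In those fits 20.4% and 15.5% of all genes passed. Mean levels of Csf2rb were 1923 CPM in transformed and 3595 CPM in parental cells within lane 6 (2 libraries each), and 1890 CPM in transformed and 3724 CPM in parental cells within lane 7 (3 and 1 libraries).

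The beta chain genes are close paralogs that lie 20031 bases apart, and 12.3% of the distinct 50-base windows of Csf2rb transcripts also occur in Csf2rb2 transcripts (18.4% the other way round). Reads from those stretches cannot be assigned with these files. Csf2rb counts per Csf2rb2 count were 1.29, 1.29, 1.32, 1.35 and 1.34 in transformed 4 to 8 and 1.31, 1.145 and 1.21 in parental 1 to 3. With both rows summed before the fit the log2 fold change was -0.99 (edgeR adjusted p = 0.170).

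**Figure D1:**
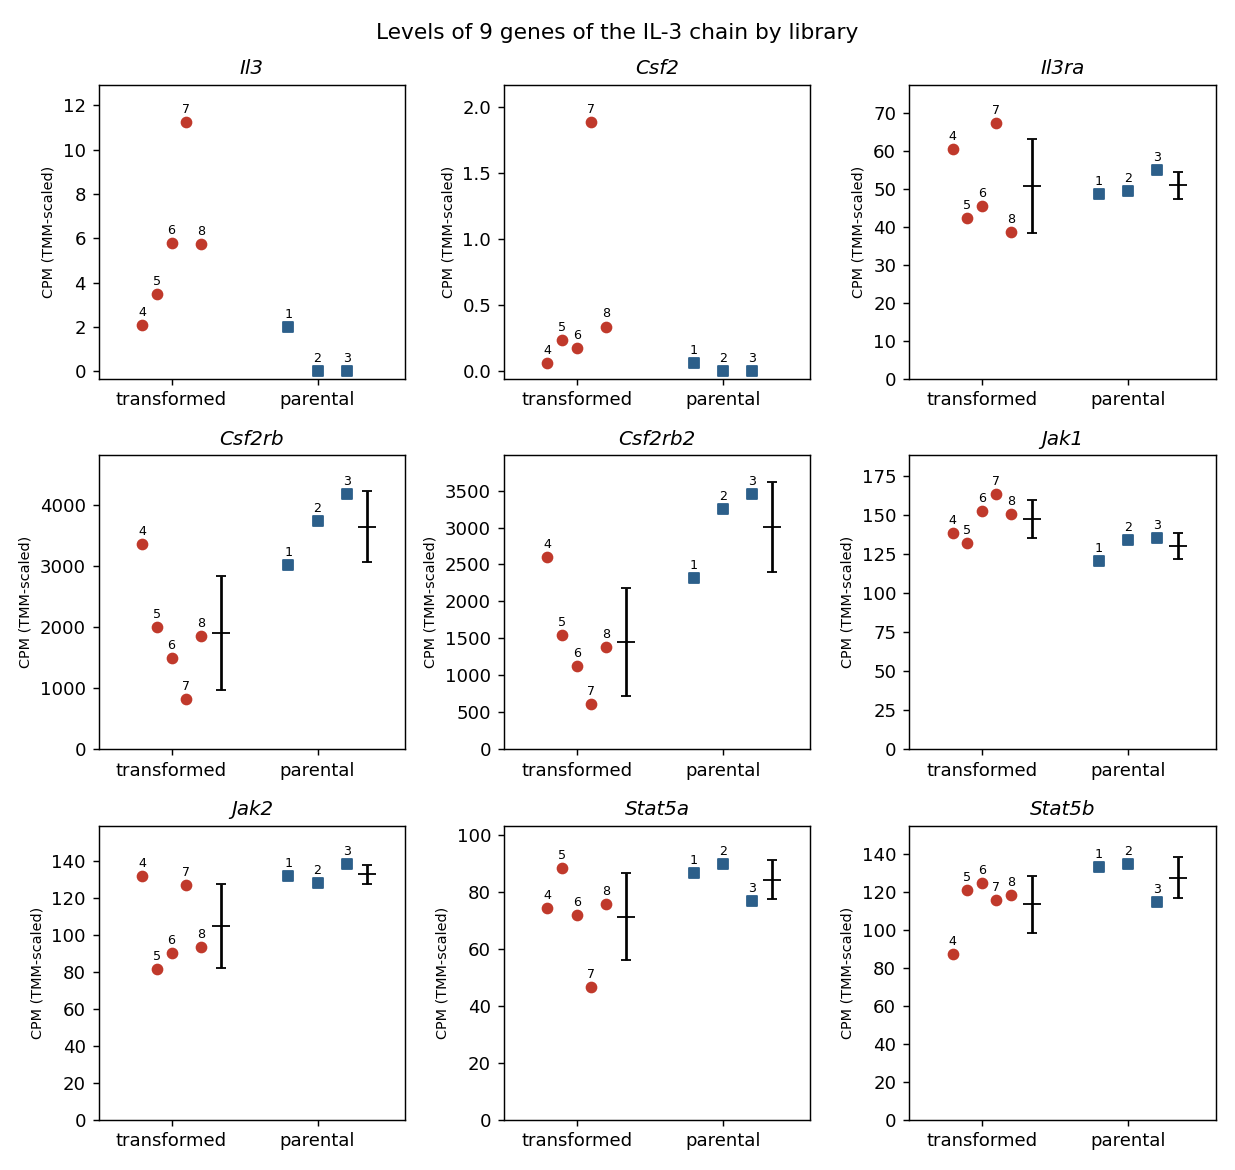
TMM-scaled CPM (vertical axes, linear) of 9 genes in the 5 transformed libraries (circles) and 3 parental libraries (squares), numbered by replicate, and bars for group means ± SD except for Il3 and Csf2. Il3 and Csf2 in parental 1 lie beside transformed 4, the beta chains are lowest in transformed 7 (825 and 610 CPM), and for Jak2 transformed 5, 6 and 8 lie below the parental libraries.

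Per kilobase of exon, beta chains exceeded the alpha chain in every library. Csf2rb stood at 461, 274, 205, 113 and 254 CPM per kb in transformed 4 to 8 and at 414, 512 and 574 CPM per kb in parental 1 to 3. Il3ra stood between 13.1 and 22.7 CPM per kb in transformed and between 16.4 and 18.6 CPM per kb in parental libraries. The ratio of Csf2rb to Il3ra per kb was 22.6, 19.2, 13.4, 4.998 and 19.5 in transformed 4 to 8, against 25.3, 30.8 and 30.9 in parental 1 to 3, so the groups did not overlap. The ratio of Csf2rb2 to Il3ra likewise ran from 5.67 to 26.9 in transformed and from 29.8 to 41.3 in parental libraries. These pairs, like that of the beta chains and the Jak2 to Jak1 and Stat5b to Stat5a pairs given with those genes, were chosen after values were seen. Exact permutation tests of the log2 ratio (2-sided, n = 5 and 3, 5 pairs) gave p = 0.0714 for each beta chain over Il3ra, 0.0536 for Csf2rb over Csf2rb2, 0.0357 for Jak2 over Jak1 and 0.714 for Stat5b over Stat5a. Adjusted over the 5 pairs, the permutation p was 0.0893 for each of the first 4 and 0.714 for the last. Among the 17733 genes tested, Csf2rb2 ranked between 103 and 520 per kb in transformed and between 55 and 109 in parental libraries.

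The alpha chain for the other ligand was not detectable at this depth. Csf2ra (ENSMUSG00000059326, chromosome 19, 61223957 to 61228429) had 1, 1, 1, 0 and 0 counts in transformed 4 to 8 and 0 in each parental library, and it was not tested. A count of 0 allows up to 0.0857 CPM in transformed 7, the shallowest library, and 0.0658 CPM in parental 3. Il5ra, the alpha chain for IL-5, had at most 1 count in any library. Of the alpha chains that pair with Csf2rb, Il3ra was thus the one with more than 1 count.

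The order of libraries by Il3 was close to the reverse of the order by Csf2rb. By Il3, from high to low, it ran transformed 7, 6, 8, 5 and 4, parental 1, then parental 2 and 3 at 0. By Csf2rb, from low to high, it ran transformed 7, 6, 8 and 5, parental 1, transformed 4, then parental 2 and 3. The libraries share the group split and, for transformed 4 and 7, other differences across the transcriptome, so this order is a description.

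**Figure D2:**
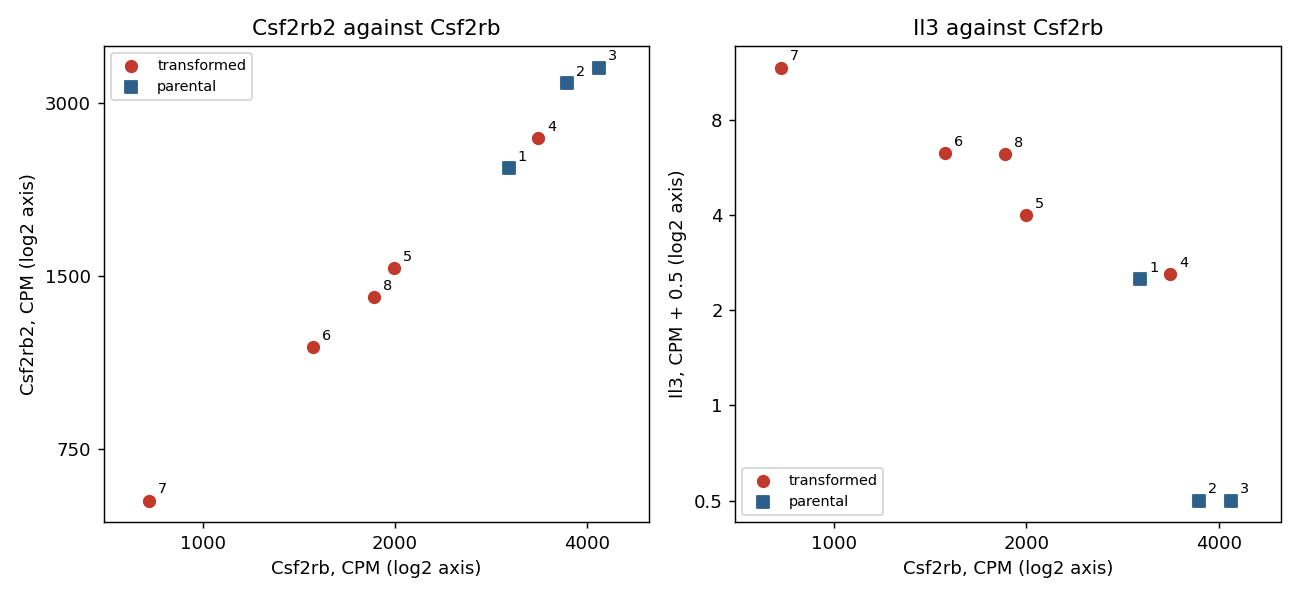
Levels of Csf2rb2 (left, CPM) and of Il3 (right, CPM + 0.5) against Csf2rb (CPM) in the 8 libraries, all axes on a log2 scale, circles for transformed and squares for parental libraries, numbered by replicate. The beta chain genes lie on one line, from 825 and 610 CPM in transformed 7 to 4176 and 3457 CPM in parental 3, while Il3 is lower where Csf2rb is higher and transformed 4 sits beside parental 1.

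Of the kinases, 4 of 5 transformed libraries lay above all parental ones for Jak1 and 4 of 5 below them for Jak2, and neither gene passed. Jak1 (ENSMUSG00000028530, chromosome 4, 101152367 to 101265282), which serves the receptors with gp130, gamma and interferon chains, was at 138, 132, 152, 164 and 150 CPM in transformed 4 to 8, against 121, 134 and 136 CPM in parental 1 to 3. All but transformed 5 were above every parental library, with a log2 fold change of 0.18 (SE 0.093, edgeR adjusted p = 0.292, exact permutation p = 0.0714). Its log2 fold change stayed between 0.14 and 0.22 over 19 alternatives, and none passed.

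Jak2 (ENSMUSG00000024789, chromosome 19, 29251828 to 29313080), the kinase bound by the beta chains, was at 132, 81.7, 90.3, 127 and 93.5 CPM in transformed 4 to 8, against 132, 128 and 138 CPM in parental 1 to 3. Transformed 5, 6 and 8 were well below the parental libraries, transformed 7 just below them and transformed 4 among them. Transformed 4 and 7 were also the highest transformed libraries for Il3ra. The log2 fold change was -0.34 (SE 0.16, edgeR adjusted p = 0.258), and the exact permutation test gave p = 0.0536. Within lane 6, with transformed 5 and 8 against parental 1 and 3, it was -0.61 (edgeR adjusted p = 0.00859), a fit in which 20.4% of genes passed. Within lane 7 it was -0.15 (edgeR adjusted p = 0.9996), a fit in which 0 genes passed.

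Over all 8 libraries the log2 fold change of Jak2 was the same as the median over 511 tested genes of chromosome 19, -0.34. The match is one of averages, since Jak2 itself was at -0.59 with transformed 4 and 7 left out. The median of its neighbours within 500 kb was -0.12. Whether Jak2 moved with its chromosome was not tested. Jak2 per Jak1 (per kb of exon) was 1.37, 0.887, 0.852, 1.11 and 0.893 in transformed 4 to 8, against 1.57, 1.38 and 1.47 in parental 1 to 3. Which kinase is the higher per kb depends on the length used: over the longest transcript the mean ratio was 0.695 in transformed and 0.999 in parental cells.

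The STAT5 genes, which lie 8.63 kb apart on chromosome 11, did not pass. Stat5a (ENSMUSG00000004043, 100859351 to 100885169) was at 74.3, 88.6, 72.0, 46.6 and 75.7 CPM in transformed 4 to 8, against 86.6, 89.8 and 76.8 CPM in parental 1 to 3. Stat5b (ENSMUSG00000020919, 100780731 to 100850724) was at 87.2, 121, 125, 116 and 119 CPM in transformed libraries, against 133, 135 and 115 CPM in parental ones. The low library differed between them: transformed 7 for Stat5a and transformed 4 for Stat5b. Stat5a had a log2 fold change of -0.24 (SE 0.18, edgeR adjusted p = 0.463, exact permutation p = 0.196). Stat5b had one of -0.17 (SE 0.12, edgeR adjusted p = 0.461, exact permutation p = 0.250). Without transformed 7 the value for Stat5a was -0.12 (edgeR adjusted p = 0.461), and without transformed 4 that for Stat5b was -0.089 (edgeR adjusted p = 0.4895).

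Stat5b per Stat5a (per kb of exon) was nearly constant in parental libraries, at 1.98, 1.93 and 1.93, but ran over 1.51, 1.76, 2.23, 3.20 and 2.02 in transformed 4 to 8. Transformed 4 and 7 lay on opposite sides of the parental values. Of the distinct 50-base windows of Stat5a transcripts, 8.21% occur in Stat5b transcripts, so some reads cannot be assigned between them. Gene counts do not show phosphorylation, so they say nothing of how active the STAT5 proteins were.

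Of the 10 members 9 were tested, and 0 of 9 passed in edgeR at an adjusted p of 0.05, where 3.01% of all genes tested passed. At an unadjusted p under 0.05 there were 4 members (Il3, Csf2, Csf2rb and Csf2rb2) and 3937 genes in all. Of all genes 0.908% passed as higher and 2.10% as lower. DESeq2 called 2 members (Csf2 higher and Csf2rb2 lower), with 10.5% of its genes called, and limma-voom called 0, with 3.32% of its genes called. Within lane 6, edgeR called 4 members (Csf2 higher, Csf2rb, Csf2rb2 and Jak2 lower), with 20.4% of its genes called. Within lane 7, with 1 parental library, the log2 fold changes of Csf2rb, Csf2rb2 and Jak2 were -0.98, -1.17 and -0.15. That of Csf2 was 7.95 there, on a parental count of 0. With transformed 4 and 7 left out, Csf2rb, Csf2rb2, Jak2 and Il3ra passed as lower, where 28.9% of genes passed. Il3 was the member whose groups did not overlap in counts as well as CPM, as higher. Its separation was narrow, with 104 counts in transformed 4 and 103 in parental 1. In CPM 8.07% of genes tested were without overlap in the higher direction. For Csf2, transformed 4 (0.0606 CPM) and parental 1 (0.0587 CPM) had 3 counts each, so their order comes from library size alone.

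**Figure D3:**
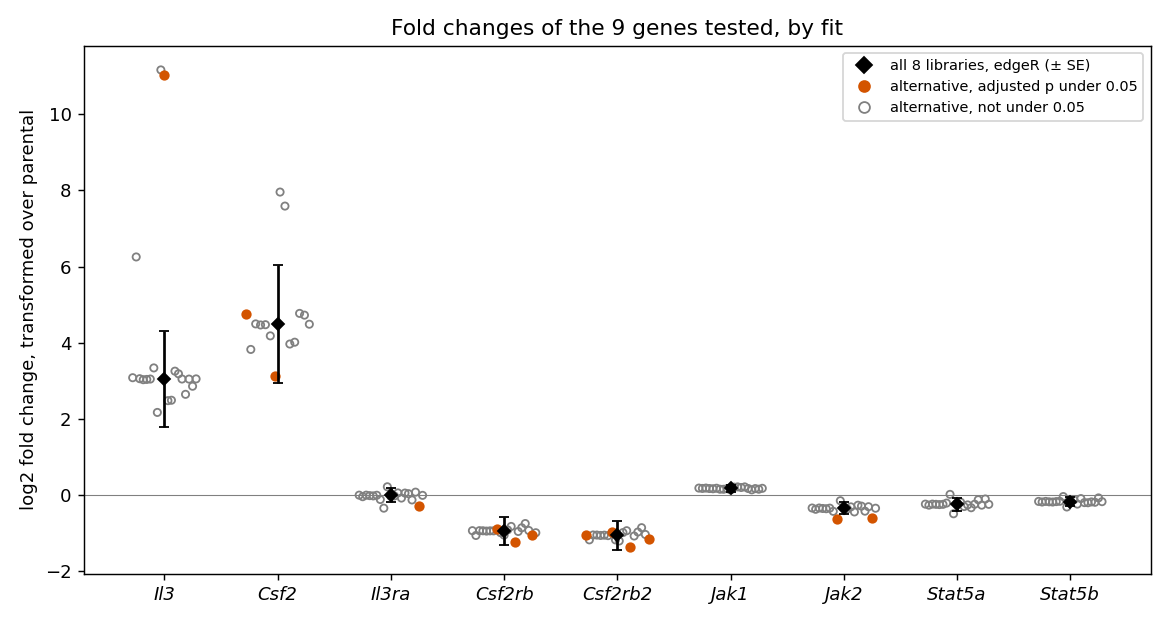
Log2 fold change, transformed over parental (vertical axis), of the 9 genes tested: black diamonds with SE for edgeR on all 8 libraries, small circles for the alternative fits, filled where the adjusted p was under 0.05. The beta chains stay between -0.74 and -1.37 in every fit, Il3 and Csf2 are above 2 in every fit, and Il3ra lies on both sides of 0.

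Fold changes near Il3 were small apart from that of Csf2. Within 500 kb of Il3, 15 other genes were tested, of which 10 had positive and 5 negative log2 fold changes (median 0.11), and 0 passed in edgeR. Leaving Csf2 aside, their log2 fold changes lay between -0.46 and 0.50. Irf1, a transcription factor 495 kb away, was at 19.4 ± 3.78 CPM in transformed and 20.4 ± 1.005 CPM in parental cells (SD, n = 5 and 3). Fnip1, a folliculin partner 173 kb away, gave a log2 fold change of -0.27 (SE 0.17, edgeR adjusted p = 0.384). Irf1 and Fnip1 were picked after their values were seen.

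Around Csf2rb, 12 of 16 neighbours had negative log2 fold changes (median -0.16), and 0 passed. The most negative after Csf2rb2 was the sulfur transferase gene Tst, 73.8 kb away (-0.99, SE 0.23, edgeR adjusted p = 0.0564). Its neighbour Mpst gave -0.50 (SE 0.16, edgeR adjusted p = 0.110), whereas Ncf4, a subunit of the phagocyte oxidase, gave -0.20 (SE 0.16, edgeR adjusted p = 0.506); these 3 were picked after their values were seen. The median over 612 tested genes of chromosome 15 was 0.03, so the beta chain genes were lower than their chromosome.

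Around Jak2, 10 of 18 neighbours were negative (median -0.12) and 3 passed, all as lower. Of all genes tested, 0.908% passed as higher and 2.10% as lower, and the median over 511 tested genes of chromosome 19 was -0.34. Whether these calls are particular to the stretch around Jak2 was not tested. Ak3, a mitochondrial adenylate kinase 231 kb away, fell to 82.7 ± 11.02 CPM in transformed cells, against 131 ± 3.72 CPM in parental cells (-0.66 on the log2 scale, SE 0.11, edgeR adjusted p = 0.0273). The cochaperone gene Cdc37l1 (-0.48, SE 0.082) and 9930021J03Rik (-0.48, SE 0.082) had the same adjusted p. Near Jak1, Leprot passed as lower (-0.44, SE 0.093, edgeR adjusted p = 0.0433), and near Stat5a the proteasome activator Psme3 passed as higher (0.59, SE 0.13, edgeR adjusted p = 0.0456).

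**Figure D4:**
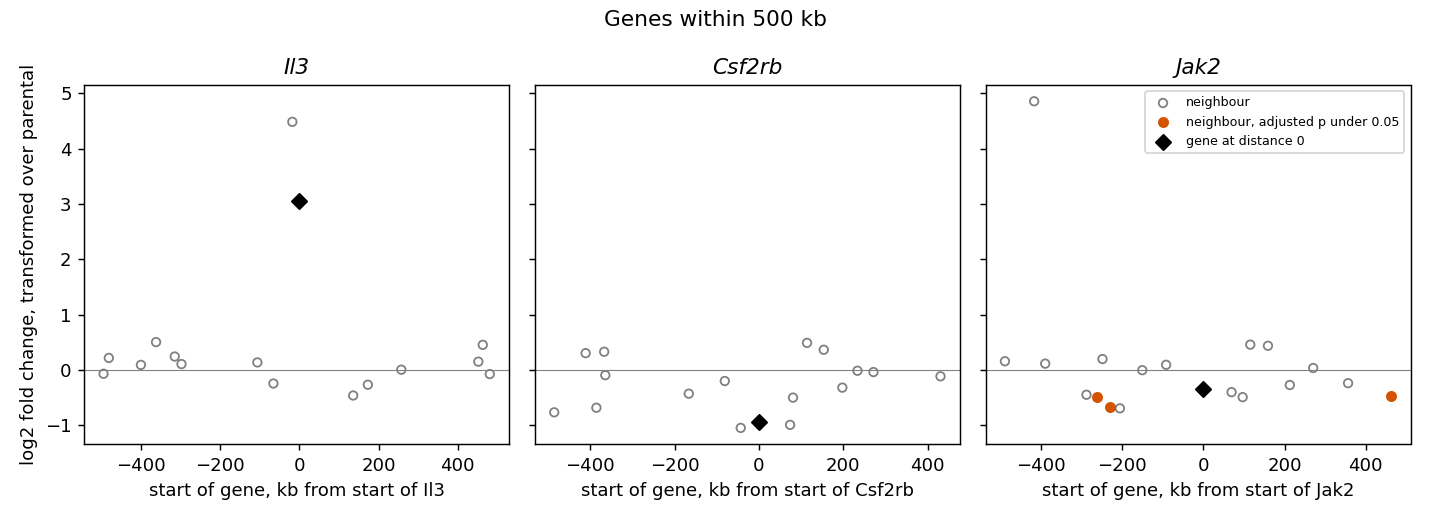
Log2 fold change, transformed over parental (vertical axis), of genes tested within 500 kb against the distance of their starts from the start of Il3, Csf2rb or Jak2 (horizontal axis, kb), filled where the edgeR adjusted p was under 0.05, with the gene itself as a diamond. Beside Il3, Csf2 stands alone at 4.49, the 12 negative neighbours of Csf2rb include Csf2rb2 at -1.05, and the point at 4.86 near Jak2 is Slc1a1, which did not pass (adjusted p = 0.221).

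The rest of the pathway was read through lists, whose medians stand beside the median over all genes tested, 0.02. Their counts of calls stand beside the shares over all genes tested, 0.908% called higher and 2.10% called lower. Whether a list differed from these shares was not tested. Of 17 tested ligands and receptors of sister cytokines, 1 passed as higher and 0 as lower (median 0.19). The one was Il13ra1, a receptor chain for IL-13, at 0.51, 0.87, 1.21, 1.14 and 0.99 CPM in transformed 4 to 8, against 0.31, 0.18 and 0.39 CPM in parental 1 to 3 (log2 fold change 1.67, SE 0.36, edgeR adjusted p = 0.0447). Next by p were Ifngr1, an interferon gamma receptor chain (-0.83, SE 0.20, edgeR adjusted p = 0.0572), and Il2rg, the gamma chain (0.56, SE 0.15, edgeR adjusted p = 0.0757).

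Among the other JAKs and STATs, 0 of 6 tested passed (median -0.03). Tyk2, a kinase of interferon receptors, came closest, with 92.6, 86.7, 92.6, 94.7 and 86.0 CPM in transformed 4 to 8, against 116, 108 and 110 CPM in parental 1 to 3 (-0.30 on the log2 scale, SE 0.074, edgeR adjusted p = 0.0619). The groups did not overlap, but the share of all genes without overlap in the lower direction is not given here. The order is thus a description. Stat2 gave -0.33 (SE 0.14, edgeR adjusted p = 0.193).

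Of 35 adaptors and RAS or PI3K components, 2 passed, both as lower, and the median was 0.04. Gab3, a docking adaptor, fell to 2.89 ± 0.37 CPM in transformed cells, against 5.13 ± 0.21 CPM in parental cells (-0.83 on the log2 scale, SE 0.14, edgeR adjusted p = 0.0273). Fes, a cytoplasmic tyrosine kinase of myeloid cells, fell to 111 ± 17.4 CPM in transformed cells, against 179 ± 13.2 CPM in parental cells (-0.70, SE 0.13, edgeR adjusted p = 0.0333). Tec, another cytoplasmic kinase, gave -0.59 (SE 0.13, edgeR adjusted p = 0.0519).

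Negative regulators had 12 positive and 12 negative members of 24 (median -0.02), and 2 passed as lower. Socs3, a feedback inhibitor of JAKs, was at 5.54, 6.61, 8.28, 6.63 and 8.69 CPM in transformed 4 to 8, against 8.62, 29.6 and 28.8 CPM in parental 1 to 3 (edgeR adjusted p = 0.0451). Parental 1 again stood with the transformed libraries. Cblb, a ubiquitin ligase, fell to 34.5 ± 5.65 CPM in transformed cells, against 59.9 ± 13.7 CPM in parental cells (-0.80, SE 0.17, edgeR adjusted p = 0.0463), and Pias3 gave -0.70 (SE 0.20, edgeR adjusted p = 0.0879).

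STAT5 target genes did not move together: 7 of 17 were positive and 10 negative (median -0.24), and 2 passed, Socs3 and Id1, both as lower. Id1, an inhibitor of helix-loop-helix factors, was at 42.7, 32.4, 44.3, 48.2 and 36.04 CPM in transformed 4 to 8, against 62.7, 89.0 and 83.2 CPM in parental 1 to 3 (log2 fold change -0.94, SE 0.16, edgeR adjusted p = 0.0256). Socs1 gave -1.04 (SE 0.45, edgeR adjusted p = 0.215). Cish and Pim1, targets of IL-3 signalling through STAT5, were picked after their values were seen, and neither passed. Cish was at 98.5, 104, 123, 158 and 113 CPM in transformed 4 to 8, against 57.1, 103 and 98.7 CPM in parental 1 to 3 (0.47, SE 0.22, edgeR adjusted p = 0.245). Pim1 was at 507, 522, 704, 955 and 574 CPM in transformed 4 to 8, against 460, 522 and 546 CPM in parental 1 to 3 (0.36, SE 0.21, edgeR adjusted p = 0.342).

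Of 22 factors known to act at the ligand genes, 1 passed, as higher, and 15 were negative (median -0.15). Nfkb1, the p105 precursor of an NF-kB subunit, was at 545, 469, 522, 702 and 539 CPM in transformed 4 to 8, against 383, 382 and 339 CPM in parental 1 to 3 (log2 fold change 0.60, SE 0.13, edgeR adjusted p = 0.0482). Rela, its partner subunit, gave -0.28 (SE 0.084, edgeR adjusted p = 0.102), and Runx2 gave -0.83 (SE 0.26, edgeR adjusted p = 0.108).

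Markers of other blood cell types were read beside the ligands. Of 14 T cell markers, 10 had counts, Cd8a, Trbc1, Trbc2 and Ifng were at 0 in all libraries, and Cd3e, Cd3g, Cd4 and Cd5 had at most 10 counts. The summed level of the list was 15.4, 4.62, 4.27, 35.9 and 5.22 CPM in transformed 4 to 8, against 10.1, 10.4 and 10.7 CPM in parental 1 to 3, and was thus highest in transformed 7, the library with the most Il3 and Csf2. Il2 and Cd247 did not pass (edgeR adjusted p = 0.230 and 0.379). Mast cell and basophil markers had counts for 11 of 13, with Kit and Fcer1a at 0, and summed to between 472 and 1714 CPM in transformed and between 782 and 963 CPM in parental libraries, highest in transformed 4 and lowest in transformed 7. Mitf, Hdc and Cma1 had the smallest p there, and none passed (edgeR adjusted p = 0.386, 0.569 and 0.622). Macrophage markers had counts for 9 of 10, with C1qa at 0, and summed to 60.1, 188, 257, 426 and 281 CPM in transformed 4 to 8, against 351, 275 and 252 CPM in parental 1 to 3, again highest in transformed 7. Cd68 passed as lower, at 7.99 ± 0.43 CPM in transformed and 10.96 ± 0.42 CPM in parental cells (edgeR adjusted p = 0.0484), while Cd14 and Mpeg1 did not pass (0.252 and 0.408). The part of these cell types in the Il3 and Csf2 values was not tested.

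The genes most like Il3 over the 8 libraries, by Pearson correlation of log2(CPM + 0.5) among 10337 genes, were Eif2ak3 (0.981), Ccl4 (0.980), Eef1akmt2 (0.980), Per2 (0.978) and Swap70 (0.978). All the libraries share their group split and parental 2 and 3 share a count of 0 in Il3, so these values describe a profile and no more. Ccl4, a chemokine, was at 10.97, 14.6, 32.2, 66.1 and 28.7 CPM in transformed 4 to 8, against 8.27, 2.86 and 2.74 CPM in parental 1 to 3, with the same highest library and the same place for parental 1 as Il3. Eif2ak3, in contrast, moved within 34.2 to 35.9 CPM in transformed and 30.8 to 33.8 CPM in parental libraries. With a pseudocount of 2 in place of 0.5, the correlations of these 5 genes ran from 0.951 to 0.998. Per2, a circadian clock gene, passed as higher (1.03 on the log2 scale, edgeR adjusted p = 0.0495).

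For Csf2rb the most alike was Csf2rb2 (0.998), followed by Crat (0.994), Zfp687 (0.994), Ankmy2 (0.990) and Ube2c (0.988). Crat, a carnitine acetyltransferase, was at 32.6, 19.96, 17.1, 8.74 and 18.7 CPM in transformed 4 to 8, against 33.4, 36.7 and 39.3 CPM in parental 1 to 3. Its log2 fold change, -0.91, was close to that of Csf2rb, and it did not pass either (edgeR adjusted p = 0.150).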

How the data were processed

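Poly(A) RNA of 5 transformed and 3 parental Ba/F3 libraries had been made into TruSeq libraries, per the labels' protocols. The authors deposited raw read counts per Ensembl gene, not normalised. STAR 2.5.3a, featureCounts 1.5.3, mm10 and GRCm38.p5 are named in the submitters' processing notes. The sources used here give neither the strand setting nor the treatment of multi-mapping reads, so paralog and antisense counts are uncertain. The table had 0 columns outside the 8 libraries, and 105 genes had no match in the GENCODE annotation. Names, GRCm38 positions and exon lengths came from GENCODE, promoters from RefSeq (9 of 10 members matched, all but Csf2rb).

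Tests used R 4.3.3 and edgeR 4.0.16 (filterByExpr, TMM, robust quasi-likelihood F test, 2-sided) with Benjamini-Hochberg adjustment over all genes tested and a threshold of 0.05; SE is the log2 fold change divided by the square root of F. Functions were tested on simulated data. Exact permutation tests compared absolute mean differences of log2(CPM + 0.5) for each of the 10 members. Intervals and floors (3 counts) cover counting error only. Alternatives were DESeq2 1.42.0, limma-voom (limma 3.58.1), other factors and filters, lane, left-out libraries and summed beta chains.

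The members, lists and tests were chosen with earlier results of these data known. Named genes were the members and U2af1, the 3 smallest p and all calls of each list, called genes within 500 kb, and the 5 genes most like Il3 and Csf2rb. Others are marked as picked after their values were seen, and some genes the rule gives are not reported here.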

Additional observations from a re-analysis of the deposited data

Results flagged for a closer look

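In the 5 transformed libraries, 36 genes were looked at for 1 library far from the other 4 (Dixon's rule, which flags about 1 in 20 groups by chance), and 7 gave one. Among members, Csf2 in transformed 7 (1.89 CPM) was far above the other 4, and Stat5b in transformed 4 (87.2 CPM) was far below them. Transformed 7 also stood out as high for Il2rg (131 CPM) and Rela (109 CPM). Transformed 4 stood out as high for the histamine enzyme Hdc (174 CPM), the chymase Cma1 (78.4 CPM) and the B cell receptor component Cd79b (22.04 CPM).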

How the results depend on the processing

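No paired analysis was possible because the groups share no replicate numbers. The number of members called was 0 as reported, 2 in DESeq2, 4 within lane 6, 0 to 2 with 1 library left out and 4 with transformed 4 and 7 left out together, where 28.9% of all genes passed and Csf2rb, Csf2rb2, Jak2 and Il3ra were lower. Over all genes 161 were called higher and 372 lower, against 850 and 1001 in DESeq2, 15 and 79 with lane as a covariate, 1682 and 1883 within lane 6, 0 and 0 within lane 7, and 2238 and 2804 without transformed 4 and 7; with 1 library left out the counts ran from 3 to 1100 higher and from 21 to 1628 lower, highest without transformed 4. The log2 fold change of Il3ra turned positive in DESeq2 (0.0012), with RLE factors (0.0012), within lane 7 (0.22) and without parental 3 or transformed 5, 6 or 8; with 1 library left out it ran from -0.12 to 0.080. Its mean log2 level difference turned without parental 3 or transformed 5 or 8, with a range of -0.14 to 0.055. Stat5a turned positive within lane 6 (0.022). The lone parental library of lane 7 was assumed to vary like the others. The other list and neighbour calls were lost in some fits: Id1 was called in 12 of 18, Socs3 in 6, Il13ra1 in 8 of 17. The cause was not tested. Of the 727 alternative values, 478 kept direction and side of the threshold, or size. Csf2 and Csf2ra rest on few counts, and depth limits both.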

Other observations

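Chromosome 11 also holds the cytokine genes Il13 and Il4, picked after their values were seen. Il13 was at 0.61, 0.54, 1.63, 6.71 and 3.36 CPM in transformed 4 to 8, against 0.43, 0.34 and 0.35 CPM in parental 1 to 3. Transformed 7 was highest, as for Il3 and Csf2. The groups did not overlap, as for 8.07% of genes tested in the higher direction. The log2 fold change of 2.76 (SE 0.90) did not pass in edgeR (adjusted p = 0.128). Il4 had no such order: it was at 0.73, 1.09, 1.39, 2.43 and 2.26 CPM in transformed 4 to 8 and highest in parental 1, at 3.25 CPM, against 1.44 and 1.40 CPM in parental 2 and 3 (edgeR adjusted p = 0.660). Osm, a cytokine gene switched on by STAT5, was at 74.1, 98.6, 128, 195 and 180 CPM in transformed 4 to 8, against 54.9, 332 and 410 CPM in parental 1 to 3 (edgeR adjusted p = 0.349). Parental 1 was thus far from the other parental libraries in Osm and Socs3 as well as in Il3, and Cish was lowest there.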
